A study of Rattus norvegicus with 12 samples.

Results

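Day 7 ischaemic brain was set against normal brain on 8 of the 12 one-colour microarrays of a rat study: 4 arrays titled as model brain and 4 titled as control brain, chosen by those titles. The control samples are labelled normal brain. The model samples are labelled as rats with embolization of the middle cerebral artery, which feeds much of one cerebral hemisphere, taken at 7 days. Another 4 arrays, from model rats given Buyang Huanwu Decoction (BHD), a multi-herb preparation, and also labelled 7 days were set beside them. All samples are labelled male, and no label gives a strain or an age. The labels conflict in places. The tissue is given as brain, while every description that names a part names hippocampus, and the text on the study's design applies the ischaemia to every group. Descriptions speak of biological replicates but tie no array to an animal, so every p-value reflects only how these samples vary, part of which may be technical. Control and model arrays lay on 1 slide, control in row 1 and model in row 2, and the effects of row and group cannot be told apart. The BHD arrays lay in row 1 of the other slide and had another recorded scan date. The effects of slide, scan and group cannot be told apart in any comparison with them.

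A circular RNA forms when a splice donor is joined back to an upstream acceptor, which closes one or more exons into a loop without free ends. Such loops are abundant in brain, where many arise from neuronal genes, and they resist exonucleases. Days after an arterial occlusion, brain tissue is known for activated microglia, entry of blood-derived immune cells and scar formation by astrocytes. The arrays carried 2 kinds of 60-base probe: 3046 named for CIRCpedia, a catalogue of circular RNAs, and 57102 named rclstr, whose target class is not given in the sources used here. Labelling started from a primer with a run of T, so the RNA measured by either kind need not be circular.

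The probes that carry the comparison are shown first. The probe rclstr_53789_185_16 is shown because it was called, as defined further on, and is the called probe that could be tied to a gene. All of its 60 bases lay in the RefSeq hairpin of Mir142, on the same strand (bases 17 to 76 of 87, GRCr8 chr10:73055120-73055179, plus strand). Mir142 is transcribed in blood-forming lineages and their descendants, microglia and macrophages among them, and its hairpin gives a microRNA from either arm. In the probe and the hairpin, capitals mark the part they share. In the mature microRNAs they mark the seed, bases 2 to 8.
rclstr_53789_185_16: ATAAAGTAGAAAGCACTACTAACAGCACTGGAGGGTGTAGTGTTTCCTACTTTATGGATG
Mir142 hairpin: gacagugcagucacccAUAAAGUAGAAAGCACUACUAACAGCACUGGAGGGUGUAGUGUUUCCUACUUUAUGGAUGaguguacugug
rno-miR-142-5p: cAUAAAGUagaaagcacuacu
rno-miR-142-3p: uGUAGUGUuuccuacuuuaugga
The probe held 20 of the 21 bases of the 5p arm and all 23 of the 3p arm, so its signal belongs to a transcript through the hairpin and to neither mature microRNA alone. The remaining sequences belong to the largest fitted rise and the 2 largest fitted falls among probes that passed the test. Fitted changes of probes near background have no reliable order. No table used here ties these 3 probes to a gene. The other called probes and the CIRCpedia probes named further on were chosen after their values were seen.
rclstr_33535_378_4: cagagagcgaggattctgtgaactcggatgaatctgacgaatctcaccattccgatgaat
rclstr_27469_574_10: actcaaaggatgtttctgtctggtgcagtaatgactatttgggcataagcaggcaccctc
rclstr_21070_1653_3: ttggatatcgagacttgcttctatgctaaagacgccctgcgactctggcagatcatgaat
Among CIRCpedia probes, the following pair shared a run of 36 bases, in capitals, beside different flanks. They are shown because both were higher in the model by about the same amount.
RNO_CIRCpedia_2817_10_33: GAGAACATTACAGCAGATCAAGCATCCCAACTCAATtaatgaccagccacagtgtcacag
RNO_CIRCpedia_2816_2_14: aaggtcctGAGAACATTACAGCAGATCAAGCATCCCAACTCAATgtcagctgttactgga

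Levels are log2 signals minus that of the array's own 75th percentile, and every change is a difference between group means of such levels. Between 73.6% and 77.3% of probes were well above background on the 8 arrays. Pairs of arrays correlated across probes, which are not independent replicates, at r = 0.9884 to 0.9932 among control arrays, 0.9884 to 0.9921 among model arrays and 0.9819 to 0.9899 between the groups. The added E1A spike-in RNA, read as the mean of 8 probes, was at 4.83 ± 0.06 (SD, n = 4) in control and 4.66 ± 0.05 in model arrays, a difference of -0.17 (exact permutation test, two-sided, p = 0.0286, the smallest that 4 against 4 can give; adjusted p = 0.0429 over 3 tests). The 3′ minus 5′ difference of the control probes for GAPDH, which reads how intact the RNA and its labelling are, was 3.04 ± 0.04 in control and 2.90 ± 0.06 in model arrays (exact permutation test, p = 0.0286, adjusted p = 0.0429). That of PGK1 was 6.43 ± 0.06 and 6.32 ± 0.12 (exact permutation test, p = 0.229, adjusted p = 0.229). The part of these technical differences in the results was not tested. Cell composition could not be checked with the matching used here, which ties probes to sequence around gene starts. Of 246 marker and pathway genes in 15 lists, 3 had a tested probe tied to them in this way.

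The question here is what separates brain 7 days after embolization from normal brain. Of 44719 tested probes, 21 passed an adjusted p of 0.05 in limma, 0.047% of those tested, and are referred to as called. Of these, 10 rose and 11 fell in the model, and all 21 were rclstr probes. On each of the 21, all 4 model arrays lay outside the range of the control arrays. Over all tested probes, the model arrays lay wholly above the control arrays on 2729 (6.1%) and wholly below on 2523 (5.64%). For 10 of the 21 the fitted change was 2-fold or larger. With the tested probes parted by mean level into 4 equal groups, the dimmest held 10 of the called probes and the brightest 1. Those 10 were 7 falls and 3 rises. The mean level takes in the model and BHD arrays, so a fall itself moves a probe toward the dimmest group and a rise away from it. Grouping by the control arrays alone was not done, so no lean of the called probes toward low signal is read from these counts. Removing 1 array at a time moved the count of called probes. Dropping control replicate 1, 2, 3 or 4 gave 9, 9, 6 or 10 called probes. Dropping model replicate 1, 2 or 3 gave 107, 3 or 6, and dropping BHD replicate 1, 2 or 3, which share in the estimate of spread, gave 11, 57 or 5. Scaling to the E1A probes moved the median change of all tested probes to 0.18 and called 2139 probes higher and 104 lower, so every direction below is relative to the bulk of the probes. Taking the percentile over well-measured probes alone gave 5 higher and 10 lower. Fitting only the 8 model and control arrays called 17 probes, of which 8 were among the 21. The 21 called probes kept their sign in all alternatives in which they were fitted. With all model arrays outside the control range, leaving out 1 array cannot turn a sign. Filters and variance settings leave the change as it was, so only scaling and background settings could have turned it.

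The largest rise was at rclstr_33535_378_4. Its control arrays were at -3.78, -3.98, -4.96 and -3.02, its model arrays at 0.74, 1.59, 1.27 and 4.21, and its BHD arrays at 2.08, -0.71, 1.00 and 2.30. Model replicate 4 stood highest, and no model array came near a control array. The log2 change was 5.89 ± 0.81 (SE, limma, adjusted p = 0.0387). In 10 of 24 alternatives it was not called (adjusted p 0.0535 to 0.117), among them those without any 1 control array, without model replicate 2 or 3 and without BHD replicate 1 or 3. Another probe, rclstr_30370_1415_6, singled out after its values were seen, was at 0.66, 0.56, 0.07 and 0.01 in control, at 2.76, 3.45, 3.65 and 5.36 in model and at 4.84, 1.61, 3.79 and 4.71 in BHD brain. Model replicate 4 was again the highest model array. Its log2 change of 3.48 ± 0.69 (SE) was not called (limma, adjusted p = 0.0921).

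The Mir142 hairpin probe rclstr_53789_185_16 rose as well. It was at -6.58, -7.19, -6.73 and -6.97 on the control arrays, none of them well above background. It was well above background on all 4 model arrays, at -4.66, -4.93, -4.71 and -5.09, and on all 4 BHD arrays, at -3.80, -4.48, -4.71 and -4.04. The groups of control and model arrays were separated by more than the spread within either. Since control has only a bound, the level is given as at least 1.94-fold higher in model brain and at least 2.92-fold higher in BHD brain (limma, adjusted p = 0.00724 and 0.000211). These bounds set the mean of the brighter group against the lowest signal well above background on each control array, and are approximate. The call was kept in 21 of 23 alternatives and lost with normexp background correction, which adds 50 units to every signal (log2 change 0.21, adjusted p = 0.0929, and 0.23, adjusted p = 0.0634, with quantile normalization after it). In bulk tissue, more cells of a type and more RNA per cell cannot be told apart.

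Among the other rises, rclstr_49208_641_34 was at -2.71, -2.96, -2.89 and -1.79 in control, at -0.79, -0.94, -1.15 and -0.51 in model and at -1.82, -1.78, -2.28 and -1.72 in BHD brain. The model arrays were highest and the BHD arrays lay between, overlapping control replicate 4. Its log2 change in the model was 1.74 ± 0.24 (SE, limma, adjusted p = 0.0387). Removing control replicate 1, 2 or 3, model replicate 2, 3 or 4, or BHD replicate 1, 3 or 4 ended the call (adjusted p 0.0564 to 0.119). The probe rclstr_63073_208_18 was at -0.21, -0.24, -0.28 and 0.01 in control and at 0.67, 0.70, 0.79 and 0.64 in model brain. It rose by 0.88 ± 0.11 (SE, limma, adjusted p = 0.0258). The call was lost without control replicate 1, 2 or 3, model replicate 2 or 3 or BHD replicate 3 (adjusted p 0.0502 to 0.107). The remaining 6 rises had log2 changes of 0.48 to 0.82.

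The largest fitted fall was at rclstr_27469_574_10, with control arrays at -2.002, -1.943, -2.571 and -2.294, model arrays at -4.95, -6.50, -5.83 and -6.54, and BHD arrays at -6.68, -5.66, -6.31 and -5.88. Only 1 model and 1 BHD array measured it well above background, so the groups were far apart but the size of the fall is poorly measured. The log2 change was -3.75 ± 0.34 (SE, limma, adjusted p = 0.00724), and -1.27 with normexp. The call was kept in all 23 alternatives in which the probe was fitted. The probe rclstr_21070_1653_3 was at -1.161, -2.002, -2.519 and -2.074 in control, at -4.40, -4.37, -4.46 and -4.11 in model, and at -6.12, -5.37, -5.04 and -4.73 in BHD brain. It fell by 2.40 on the log2 scale (SE 0.31, limma, adjusted p = 0.0367), and its BHD arrays lay below its model arrays. Its call ended without control replicate 1, 2 or 4, model replicate 2, 3 or 4 or BHD replicate 3 (adjusted p 0.0518 to 0.117).

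The probe rclstr_50756_412_21 kept its call in all 24 alternatives. Its control arrays were at -2.02, -1.79, -1.66 and -1.97, its model arrays at -3.13, -3.29, -3.18 and -3.31 and its BHD arrays at -3.65, -3.04, -3.23 and -3.07, all well above background. The model arrays lay close together and well below control, and the change was -1.36 ± 0.13 on the log2 scale (SE, limma, adjusted p = 0.00724). Next to it in stability, rclstr_52293_327_12 fell by 0.96 (SE 0.10, limma, adjusted p = 0.00874) and kept its call in 22 of 24 alternatives. It lost the call without model replicate 2 (limma, adjusted p = 0.0584) and with only the 8 model and control arrays (adjusted p = 0.0522). A further fall, rclstr_42850_435_13, lay well above background on no model array. It was at -3.78, -4.23, -4.61 and -4.50 in control and at -4.85, -4.63, -4.36 and -4.11 in BHD brain, and was at least 2.57-fold lower in the model than in control (limma, adjusted p = 0.0134). Its call was lost in 3 of 23 alternatives, among them without model replicate 2 (adjusted p = 0.0802) and with normexp before percentile scaling (log2 change -0.38, adjusted p = 0.0513). Bounds for rclstr_905_1049_5 and rclstr_34404_701_14, likewise not above background on any model array, were at least 2.30-fold and at least 1.29-fold lower (limma, adjusted p = 0.0387 and 0.0367). They lost their calls in 13 and 15 of 23 alternatives (adjusted p 0.0505 to 0.117 and 0.0505 to 0.244), with no filter on dim probes and with normexp before percentile scaling among them. For rclstr_905_1049_5 these included dropping control replicate 2, 3 or 4, model replicate 2, 3 or 4, or BHD replicate 1, 3 or 4. For rclstr_34404_701_14 they included dropping control replicate 1, 3 or 4, model replicate 2, 3 or 4, or BHD replicate 3. The filter on all 8 arrays left out rclstr_42850_435_13, rclstr_905_1049_5 and rclstr_34404_701_14, which were tested through groups where they are high.

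**Figure D1:**
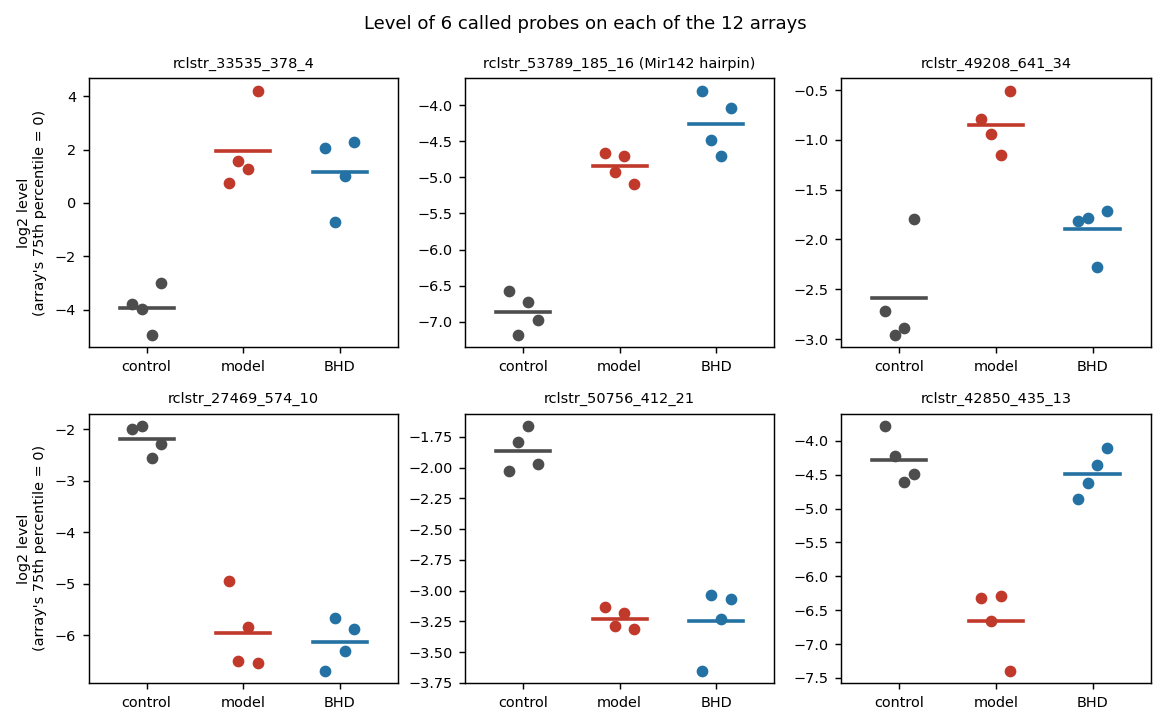
Log2 level (vertical axis, 0 at the 75th percentile of each array, scale differs between panels) of 6 called probes in the 4 control, 4 model and 4 BHD arrays. Points are arrays and bars are group means; the model arrays are outside the control range in every panel, and rclstr_42850_435_13 overlaps the control arrays in BHD brain.

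Probes at the starts of haemoglobin genes were lower in the model. Haemoglobin alpha and beta chains are made in red blood cells and their precursors, and their messengers dominate RNA from blood. The probe rclstr_55272_6_34 shared 57 bases with the start of Hba-a2 (GRCr8 chr10:15829089-15829145, minus strand, from 7 bases before the annotated start to base 50 after it), and also 53 bases with Hba-a3 and 35 with Hba-a1, so it is read as alpha-globin without naming the copy. Its control arrays were at 4.17, 3.99, 3.48 and 3.80, its model arrays at 1.59, -2.29, 0.13 and -1.43 and its BHD arrays at -0.80, -0.01, -1.01 and 1.33. The control arrays lay close together (SD 0.29), while the model arrays were all lower and widely spread (SD 1.72). The log2 change of -4.36 ± 0.74 (SE) missed the threshold (limma, adjusted p = 0.0672), and that of BHD against the same control arrays passed it (-3.98, limma, adjusted p = 0.00935).

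The probe rclstr_47985_118_22 shared 49 to 52 bases with the starts of Hbbl1, Hbb-b1, Hbb-b2 and Hbb-bs, genes of the beta-globin cluster on chromosome 1, and is read as beta-globin without naming the copy. It was at 2.11, 2.06, 1.13 and 1.46 in control, at -0.52, -3.54, -1.34 and -2.51 in model and at -1.71, -1.23, -2.39 and -0.20 in BHD brain. Model replicate 1 was highest and replicate 2 lowest, as on the alpha-globin probe. The log2 change was -3.66 ± 0.61 (SE, limma, adjusted p = 0.0629). Each globin probe was called in 5 of 24 alternatives, with E1A scaling, with either normexp setting, with an intensity trend in the variance model and without model replicate 1 (alpha-globin -5.06, adjusted p = 0.0264; beta-globin -4.15, adjusted p = 0.0289). Of the 9 genes in the blood cell list, 5 shared a run of 30 bases or more with these probes.

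Some bright probes followed the same order of arrays. In the brightest of the 4 level groups, 6 probes were lower by a log2 change of 2 or more in the model, the alpha-globin probe among them. Counting that probe itself, which matches by definition, 5 of the 6 had its exact order of the 4 model arrays. In 4 of the 5, again with that probe counted, the BHD arrays followed its order too. One of these, rclstr_50751_562_26, which was singled out after its values were seen, was at 8.99, 8.91, 8.67 and 8.67 in control and at 7.23, 3.73, 6.15 and 4.70 in model brain. None of the 6 was called between model and control (limma, adjusted p 0.0672 to 0.326). In BHD minus control, 5 were called lower, where 10.7% of all tested probes were called in either direction. The 6 were chosen by their distance from these same control arrays, which pulls their BHD change the same way. Among called falls, rclstr_25586_319_10 was at -2.24, -2.48, -2.43 and -2.40 in control and at -3.28, -4.11, -3.72 and -4.05 in model brain. Its model arrays had the order of the alpha-globin probe, the only 1 of the 11 called falls that did. Of the 11, 3 had replicate 1 highest and replicate 3 next among model arrays, and none had that probe's order over the BHD arrays. The share of all tested probes with these orders was not counted, and the part of red blood cell RNA in the called falls was not tested.

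**Figure D2:**
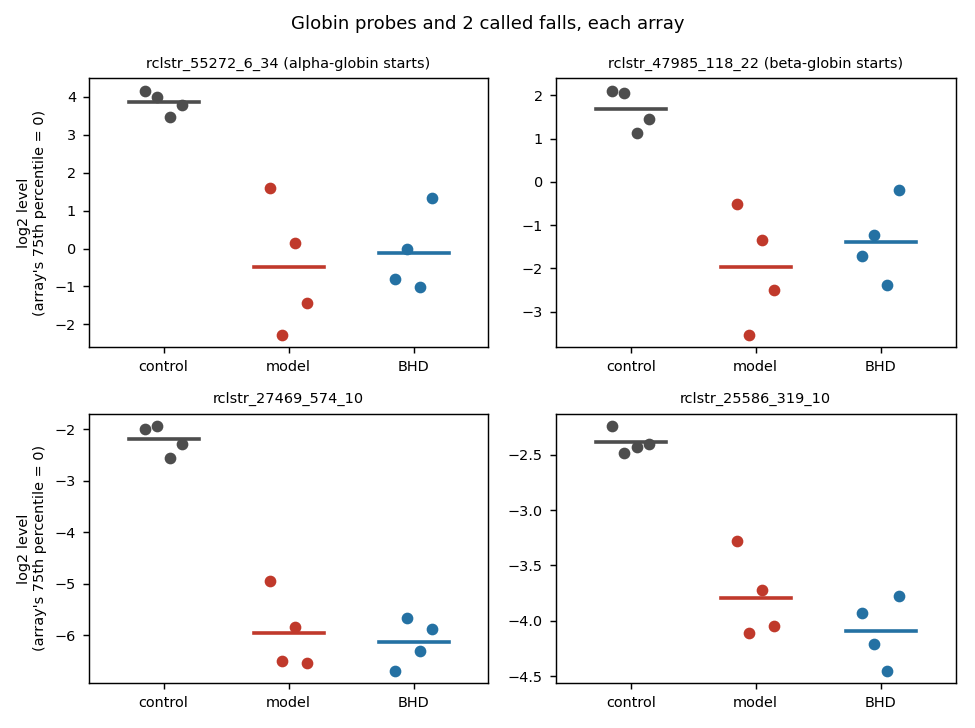
Log2 level (vertical axis, 0 at the 75th percentile of each array) of the alpha-globin and beta-globin probes and of 2 called falls, chosen because model replicate 1 is highest, in 4 control, 4 model and 4 BHD arrays. Points are arrays and bars are group means; all 4 panels show model replicate 1 above the other model arrays and no model array in the control range.

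The classes of probe were then described across signal levels. CIRCpedia probes were measured more often: 2915 of 3046 (95.7%) were tested against 41804 of 57102 rclstr probes (73.2%). Limma called no CIRCpedia probe at an adjusted p of 0.05, with 0.0506 the smallest adjusted p among the 2915. At an unadjusted p under 0.05 there were 420 CIRCpedia probes (14.4%), 123 higher and 297 lower, and 7448 rclstr probes (17.8%), 3594 higher and 3854 lower, beside 7868 or 17.6% over all tested probes. With E1A scaling the same counts were 831 higher and 35 lower for CIRCpedia and 12851 higher and 1137 lower for rclstr probes. The CIRCpedia count was 249 without control replicate 3 and 239 without model replicate 3. The counts of called CIRCpedia probes were 3 with quantile normalization, with the deposited table and without model replicate 1, 1 without control replicate 1 or BHD replicate 2, 10 at an adjusted p of 0.1, 1 or 8 with the normexp settings, 2 with an intensity trend and 100 with E1A scaling.

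CIRCpedia changes were narrow. The middle 90% of log2 changes ran from -0.35 to 0.22 for CIRCpedia and from -0.51 to 0.44 for rclstr probes, and 7 CIRCpedia probes (0.24%) against 642 rclstr probes (1.54%) were fitted at 2-fold or beyond. The median SE of a change was 0.10 for CIRCpedia and 0.13 for rclstr probes. For 2871 CIRCpedia probes (98.5%) the 95% interval of the change lay inside 2-fold in either direction, and for 2563 (87.9%) inside 1.5-fold. The matching shares of rclstr probes were 88.9% and 67.8%. Most CIRCpedia probes were thus bounded to small differences, within the scaling used.

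Precision was then read by level. From the dimmest to the brightest group the median SE of CIRCpedia probes was 0.17, 0.11, 0.09 and 0.09, and that of rclstr probes was 0.22, 0.13, 0.10 and 0.09. CIRCpedia probes had the smaller SE in the dimmer groups, and the classes were close in the brightest. Only 12.3% of CIRCpedia probes fell in the dimmest group, against 25.9% of rclstr probes. The share with an unadjusted p under 0.05 in CIRCpedia probes was 13.97%, 12.99%, 14.37% and 17.29% from dim to bright, and in rclstr probes 18.4%, 18.7%, 18.4% and 15.9%. CIRCpedia probes thus had the lower share in the first 3 groups and the higher share in the brightest. Their median change ran from -0.10 in the dimmest group through -0.06 and -0.03 to 0.02 in the brightest, and that of rclstr probes from -0.05 through -0.01 and 0.01 to 0.04. In both classes the median was below 0 in the dimmest group and above 0 in the brightest. Among probes of the brightest group with an unadjusted p under 0.05, 39 CIRCpedia probes were higher and 54 lower. For rclstr probes 1003 were higher and 689 lower. The mean level includes the model arrays, so a probe that is lower there also counts as dimmer. E1A scaling moved the class medians from -0.03 to 0.14 and from 0.01 to 0.18, so the sign of these medians rests on the scaling.

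**Figure D3:**
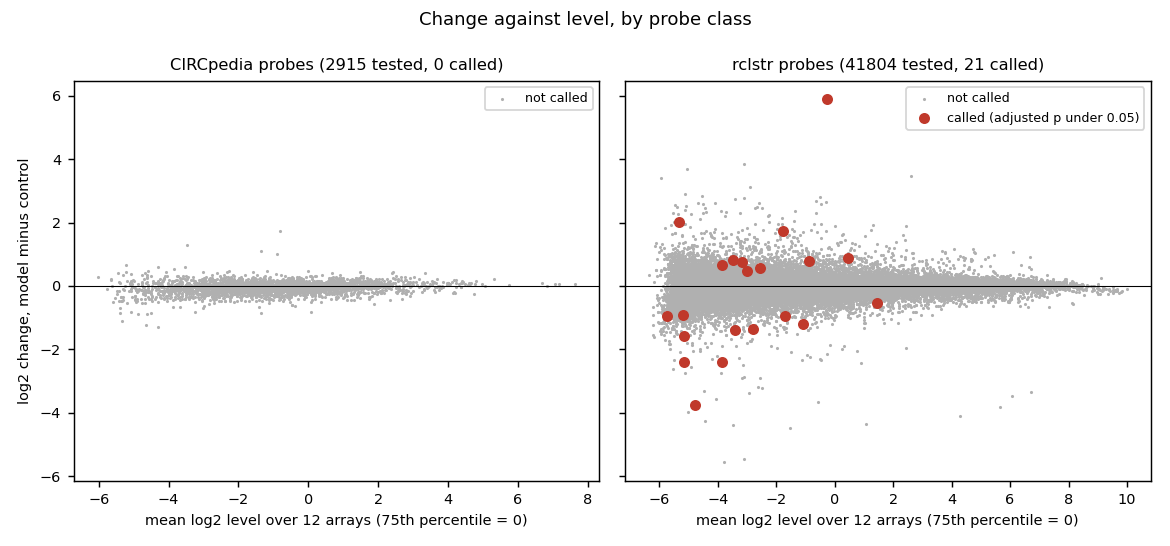
Log2 change, model minus control (vertical axis), against the mean log2 level over 12 arrays (horizontal axis, 0 at the 75th percentile) for 2915 CIRCpedia probes (left) and 41804 rclstr probes (right). Grey points are probes not called and red points the 21 called; CIRCpedia changes form the narrower band and hold no call.

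**Figure D4:**
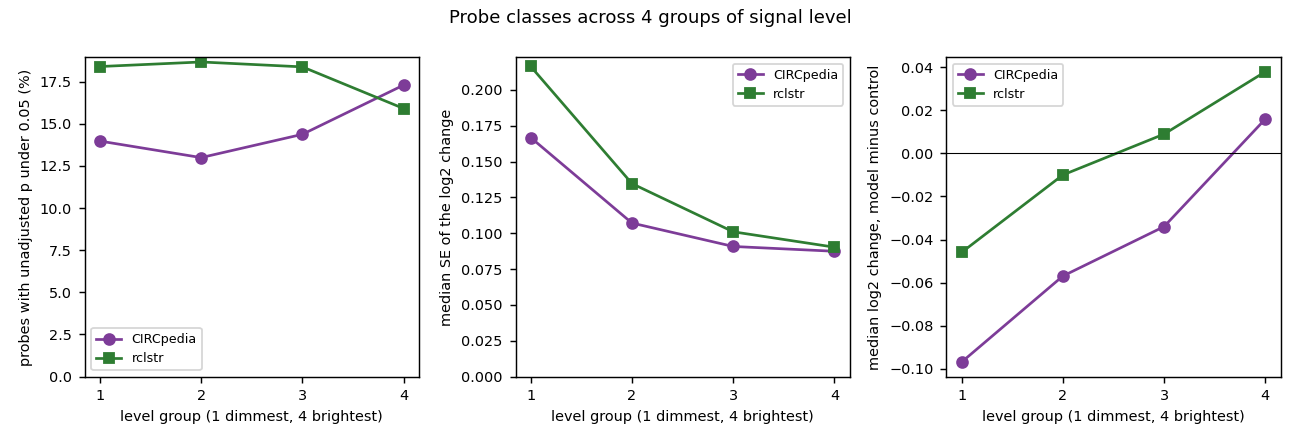
Share of probes with an unadjusted p under 0.05, median SE of the change and median log2 change (vertical axes) in 4 groups of signal level from dimmest to brightest (horizontal axis), for CIRCpedia and rclstr probes. The SE falls with level in both classes, and the median change runs from below 0 in the dimmest group to above 0 in the brightest.

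No CIRCpedia probe was called, so the following are values only. The smallest p belonged to RNO_CIRCpedia_5189_0_12, at -1.09, -1.07, -0.84 and -1.02 in control and at -1.52, -1.42, -1.50 and -1.46 in model brain. Its log2 change was -0.47 ± 0.07 (SE, limma, adjusted p = 0.0506), and in BHD brain it was -0.51. The model arrays lay tightly together below all control arrays. The pair with printed sequences was higher in the model. RNO_CIRCpedia_2817_10_33 was at -2.11, -2.21, -2.03 and -2.21 in control, at -1.45, -1.11, -1.10 and -0.55 in model and at -0.57, -0.93, -1.17 and -0.96 in BHD brain, a change of 1.09 ± 0.17 in the model (SE, limma, adjusted p = 0.0514). RNO_CIRCpedia_2816_2_14 was at -1.47, -1.69, -1.54 and -1.70, then at -1.06, -0.73, -0.50 and -0.07 in model and at -0.10, -0.50, -0.73 and -0.64 in BHD brain, a change of 1.01 ± 0.19 (SE, limma, adjusted p = 0.09). The arrays of model and BHD brain overlapped each other on both probes and lay above all control arrays. Since the probes share 36 bases, they are not independent readings.

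Values of other CIRCpedia probes fitted at 2-fold or beyond follow. RNO_CIRCpedia_5625_1_12 had the largest fitted change, 1.74 ± 0.54 (SE, limma, adjusted p = 0.158), with model arrays at -0.94, -0.55, -0.66 and 1.49 against control arrays at -1.67, -1.93, -1.95 and -2.08. Its model replicate 4 stood far above the rest, as on rclstr_33535_378_4. RNO_CIRCpedia_5718_12_16 had a change of 1.29 ± 0.76 (SE, limma, adjusted p = 0.396) that rested on model replicate 3, at 0.16, while its other model arrays were at -3.99, -3.80 and -4.09. RNO_CIRCpedia_5686_16_14 was lower by 1.22 ± 0.20 (SE, limma, adjusted p = 0.054) but was well above background on 1 model array, and in BHD brain it differed from control by -0.10. BHD minus model was 1.13 for this probe (limma, adjusted p = 0.0131), where 3.19% of all tested probes were called. RNO_CIRCpedia_2704_7_15, RNO_CIRCpedia_9127_16_11 and RNO_CIRCpedia_7410_15_18 were called there too (limma, adjusted p = 0.0194, 0.0156 and 0.0168). These probes were picked by their change in the model, which pulls BHD minus model toward control, so no reversal is read from them.

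Probes that share sequence gave a reading of how far such changes are shared. Among tested pairs with a common run of 20 bases or more on the same strand, the change of one probe correlated with that of the other at r = 0.872 over 1051 rclstr pairs, 0.572 over 444 pairs of a CIRCpedia with an rclstr probe and 0.529 over 764 CIRCpedia pairs. Over 365 rclstr pairs with such a run on opposite strands, r was 0.468. These points share arrays and sequence, and r is a description. In 32 of the 444 mixed pairs both probes had an unadjusted p under 0.05 with the same sign, and in 1 with opposite signs. The called fall rclstr_30264_1601_1014 shared 55 bases with rclstr_27910_1749_32, and their log2 changes were -0.55 ± 0.07 and -0.54 ± 0.08 (SE, limma, adjusted p = 0.0387 and 0.0506). The called fall rclstr_34404_701_14 shared 51 bases with rclstr_33768_686_12 on opposite strands, and the partner differed by -0.04 (SE 0.07, limma, adjusted p = 0.833). RNO_CIRCpedia_5189_0_12 shared 27 bases with rclstr_6960_560_4, which was lower by a log2 change of 0.44 in the model. RNO_CIRCpedia_7158_0_12 and RNO_CIRCpedia_4138_10_43 shared 35 bases and were both at -0.50. Other partners did not follow. RNO_CIRCpedia_5686_16_14, at -1.22, shared 33 and 24 bases with rclstr_49505_102_14 and rclstr_10886_1678_13, which changed by 0.01 and 0.06. RNO_CIRCpedia_8340_15_28, at -1.29, shared 31 bases with RNO_CIRCpedia_6416_0_22, at 0.25.

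Differences of the model were then set beside those of BHD brain. Both are taken against the same 4 control arrays, which pulls them the same way, so each comparison's own values are given and no agreement is tested. The BHD arrays lay in the same slide row as the control arrays, but on another slide with another recorded scan date. In BHD minus control and BHD minus model, the effects of slide, scan and group therefore cannot be told apart. All 21 called probes had the same sign in BHD minus control, and 17 were also called there, 8 higher and 9 lower, where 10.7% of all tested probes were called. On 16 of the 21 the 4 BHD arrays all lay outside the control range on the same side. Over all tested probes the BHD arrays lay wholly above control on 7.59% and wholly below on 11%. Of the 17 probes called in both, 12 were well above background on all 12 arrays. For these the BHD change was 68.1% to 136% of the model change on the log2 scale, and at least as large for 5. Leaving out 1 array at a time gave 3 to 93 in place of 17.

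The 4 called probes that did not pass in BHD brain were rclstr_49208_641_34, rclstr_64122_126_20, rclstr_905_1049_5 and rclstr_42850_435_13. The first 2 had model changes of 1.74 and 0.67 and BHD changes of 0.69 and 0.23. The last 2 were at least 2.30-fold and at least 2.57-fold lower in the model, and had BHD changes of -0.53 and -0.21. The test of BHD minus model itself passed for these 4 and for rclstr_34404_701_14, in each case toward control, where 3.19% of all tested probes were called. The difference was -1.05 for rclstr_49208_641_34 and -0.44 for rclstr_64122_126_20 (limma, adjusted p = 0.0428 and 0.0301). With no model array above background, rclstr_905_1049_5 and rclstr_42850_435_13 were at least 1.59-fold and at least 2.23-fold higher in BHD than in model brain (limma, adjusted p = 0.0264 and 0.00265). For rclstr_34404_701_14, measured on 2 BHD arrays and no model array, no fold can be given (adjusted p = 0.0463). For none of the 21 was BHD minus model called away from control. The 21 were chosen by how far these same model arrays lay from control, which pulls BHD minus model toward control. The 3.19% is over all tested probes, which were not so chosen. No reversal by BHD is therefore read from these directions. For the remaining 16 that difference missed the threshold, which does not show that they were equal.

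**Figure D5:**
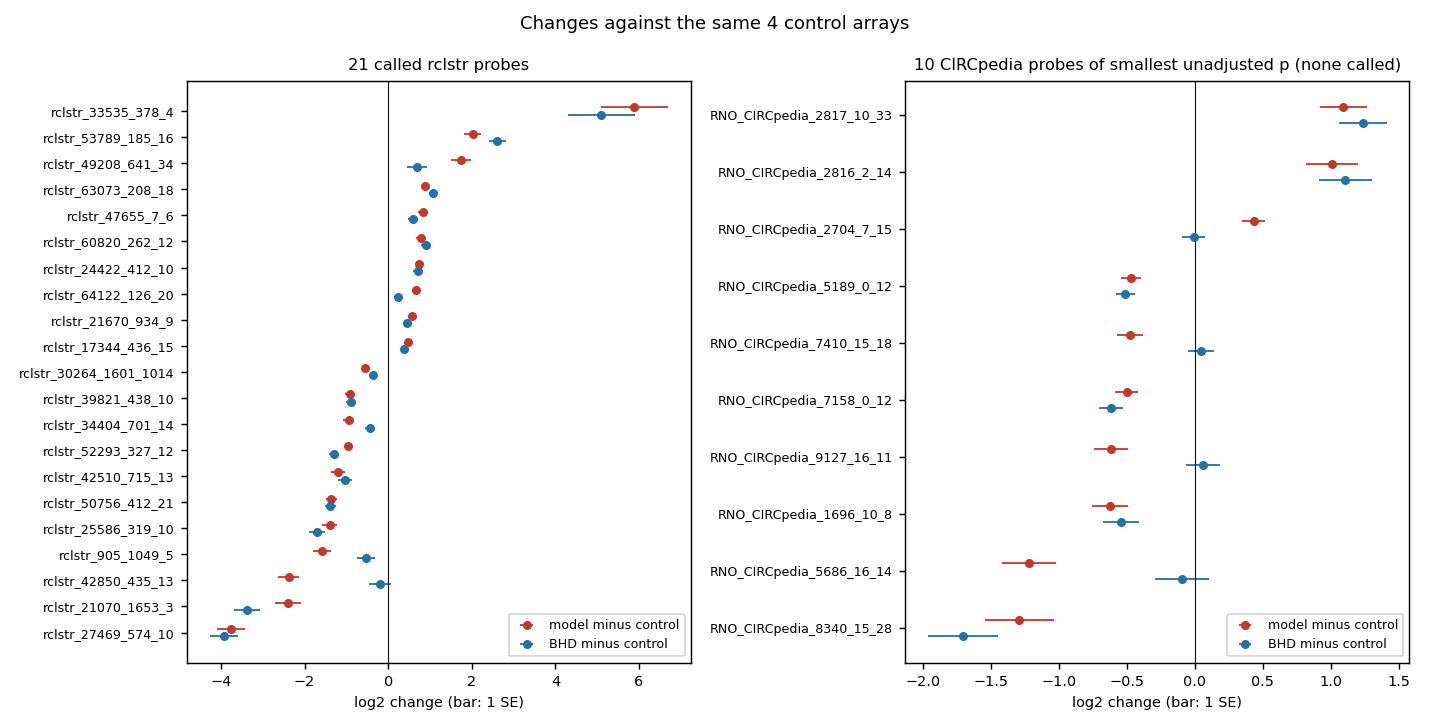
Log2 change against the 4 control arrays (horizontal axis, bars are 1 SE) in model brain (red) and BHD brain (blue) for the 21 called rclstr probes (left) and the 10 CIRCpedia probes of smallest unadjusted p (right, none called). On the left, BHD minus model was called for 5 probes, rclstr_42850_435_13, rclstr_905_1049_5 and rclstr_49208_641_34 among them; on the right RNO_CIRCpedia_5686_16_14 lies furthest apart, and it and 3 others lie near 0 in BHD brain.

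In BHD minus control, 731 CIRCpedia probes (25.1%) and 11795 rclstr probes (28.2%) had an unadjusted p under 0.05, beside 28% of all tested probes. Probes whose model and BHD arrays all lay above the control arrays numbered 54 among CIRCpedia (1.85% of those tested) and 1035 among rclstr probes (2.48%), 2.44% over both classes. Those wholly below numbered 61 (2.09%) and 958 (2.29%), 2.28% over both. Of the 10 CIRCpedia probes with the smallest p, RNO_CIRCpedia_8340_15_28 was lower by 1.29 in the model and by 1.71 in BHD brain, while RNO_CIRCpedia_9127_16_11 was at -0.62 in the model and 0.06 in BHD brain. On or off signal was rarer: of 57102 rclstr probes, 60 were well above background on all control and no model arrays. Of these, 10 were well above background on no BHD array either. Another 20 were well above background on all model and no control arrays. Of those 20, 7 were also detected on all BHD arrays, the Mir142 probe among them. No CIRCpedia probe was in either set. Since 93.8% of CIRCpedia and 69% of rclstr probes were well above background on all 8 arrays, no class difference is read from this.

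A gene could be attached to few probes. Against RefSeq sequence windows (GRCr8, 250 bases before to 50 after each annotated start), with hairpins taken separately, 500 tested probes were tied to a gene by the longest same-strand run of 30 bases or more, 15 of them CIRCpedia probes. Such a match places the probe's sequence and does not show which transcript was measured. None of the 500 was called, and 95 (19%) had an unadjusted p under 0.05, near the 17.6% of all tested probes. With globins set aside, the lowest p among tied probes that were lower belonged to Cenpm, a centromere protein gene (log2 change -0.77 ± 0.15 SE), Tfap4, a transcription factor gene (-0.50 ± 0.10), and Phgr1 (-0.40 ± 0.09), with limma adjusted p of 0.0859, 0.0944 and 0.109. Among tied probes that were higher they belonged to LOC108348449 (0.66), LOC134484075, on a pair of overlapping probes (0.52 and 0.45), Akr1b7, an aldo-keto reductase gene (0.74), and LOC134480846 (0.39). Akr1b7 differed by -0.01 in BHD brain. Among CIRCpedia probes, one at Plekhg1 differed by -0.45 ± 0.11 (SE, limma, adjusted p = 0.112) in the model and -0.48 in BHD brain, and one at Klhl32 of 0.27 ± 0.09 (adjusted p = 0.184) and 0.34. Those at Coq3, a gene of ubiquinone synthesis, and St3gal5, a gene of ganglioside synthesis, were at 0.15 and 0.04, and 6 at uncharacterised loci lay between -0.45 and 0.16. Among the latter, RNO_CIRCpedia_9565_13_20 had opposite signs, at -0.29 in the model and 0.31 in BHD brain. Neither change was called (limma, adjusted p = 0.163 and 0.0504), while BHD minus model was (0.61, adjusted p = 0.00657). Aqp4, the astrocyte water channel gene, was at -0.10 and Bcl2l1, a gene that restrains cell death, at -0.13.

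Changes at the other hairpin probes were smaller than at Mir142. The probe at Mir22 was at -0.34, -0.23, -0.41 and -0.25 in control and at -0.18, 0.16, 0.29 and -0.23 in model brain, a change of 0.32 ± 0.11 (SE, limma, adjusted p = 0.196). In BHD brain its change was 0.59 (adjusted p = 0.0102). The probe at Mir24-1 changed by 0.20 and that at Mir410 by -0.45, and those at Mir27b and Mir429 by -0.12 and -0.11, none called (limma, adjusted p 0.291 to 0.698). Probes at Mir10b and Mir3543, and antisense to Mir34b and Mir195, were not well above background on any of the 12 arrays.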

How the data were processed

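Rat total RNA was labelled with Cy3 and hybridised to one-colour Agilent arrays, per the labels' protocols. The submitters' processing notes name Agilent Feature Extraction 10.7.1.1 for image analysis. The deposited scanner files give processed spot intensity, background-subtracted per the file headers, with mean and background intensity and flags. The deposited value table holds log2 values, read as quantile normalized from the values. Group and replicate came from titles, and slide position from file headers. Arrays being few limits precision.

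Outlier spots were left out, spots of a probe averaged on log2 processed intensity, and each array's 75th percentile subtracted. A probe counted as well above background if at least a share of 0.5 of its spots were flagged so, and was tested if so on every array of 1 of the 3 groups or more. limma 3.58.1 (R 4.3.3) fitted 1 mean per group over 12 arrays, with Benjamini-Hochberg adjustment over 44719 probes. The fit was tested on simulated data.

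Named probes: by rule, the 2 largest called rises and falls, called probes tied to 1 gene, and per class and direction the 5 tied probes of smallest p measured on all 8 arrays. Further probes were named after their values were seen. Matching to RefSeq windows and hairpins was chosen after the reference was seen, in place of transcripts or proteins, not used here. The comparison, rules and lists were chosen with earlier results of these data known. The gene lists were not run, since 3 of 246 genes had a tied probe. Alternatives covered scaling, background correction, the deposited table, filters, fits, thresholds and single arrays. Deviations of same-numbered control and model arrays correlated at r = -0.194 to -0.0379, so the numbers were not taken as pairs.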

Additional observations from a re-analysis of the deposited data

Results flagged for a closer look

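In each of 123 groups of 4 arrays (41 named probes, 3 groups each) the most extreme array was set against the rest by Dixon's test, which by chance marks about 1 group in 20. The test marked 5. The called fall rclstr_39821_438_10 was at -5.72 in model replicate 1 and between -5.42 and -5.39 in the other model arrays. The called fall rclstr_42510_715_13 was at -1.19 in model replicate 3 and between -1.65 and -1.63 in the others. The called rise rclstr_64122_126_20 was at -4.06 in BHD replicate 4, against -3.88 to -3.86. The Akr1b7 probe rclstr_31101_45_11 was at -3.29 in model replicate 1, against -3.24 in the others, and RNO_CIRCpedia_2512_0_10 was at 1.81 in control replicate 4, against 1.73 to 1.74. The last 2 gaps are small and were marked since the other arrays lay very close together.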

How the results depend on the processing

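The 21 called probes kept their sign under every alternative in which they were fitted, though only changes of scaling and background correction could have turned it. Over all these alternatives the 21 kept the call in 292 fits and lost it in 206. The count of 21 became 51 with quantile normalization (20 of the 21 among them), 51 with the deposited table, 2243 with E1A scaling, 53 with normexp before percentile scaling (12 of the 21) and 230 with normexp before quantile normalization. It was 10 with no filter on dim probes, 13 with only probes well above background on all 8 arrays, 48 with an intensity trend (16 of the 21), 4 at an adjusted p of 0.01 and 281 at 0.1. With the replicate number as a block, which is also the column on the slide, it was 12, of which 7 were among the 21; rclstr_42850_435_13 was not called with it (adjusted p = 0.0602). The count also called in BHD, 17, became 41, 41, 1025, 44, 187, 7, 11, 40, 4 and 225 in those settings, and 9 with the replicate block. With only the 8 model and control arrays, 17 probes were called, of which 8 were among the 21. Leaving out 1 array gave 3 to 107 calls, and 3 to 93 also called in BHD. Probes at an unadjusted p under 0.05 became 866 CIRCpedia and 13988 rclstr with E1A scaling, and 239 to 479 and 5233 to 8613 without 1 array. The class medians became 0.139 and 0.179 with E1A scaling, and the rclstr median 0.018 with no filter. Without 1 array the E1A difference was -0.189 to -0.147, the GAPDH difference -0.162 to -0.122 and the PGK1 difference -0.149 to -0.0687. Neither E1A nor GAPDH passed without control replicate 1, 2 or 3. In those fits the E1A p stayed at 0.0286 (exact permutation test, adjusted p = 0.0857), the smallest they can give. E1A could not pass there unless another measure was as low. The value at RNO_CIRCpedia_6665_7_16, -0.163, became 0.01019 with E1A scaling. The cause of these differences was not tested. Gene list counts and the peptide match of probes to genes were not run, and the BHD count has no value in the fit of 8 arrays. Near-background signal limits the size of changes of dim probes.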
